A study of Rattus norvegicus with 12 samples.

Results

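The genes described here are macrophage and antigen presentation genes in the rat choroid plexus, the tissue in the brain ventricles that secretes cerebrospinal fluid and that holds macrophages beside its epithelium. The set named CD74, LYZ2, B2M, RT1-DA, RT1-BA, RT1-DB1, C1QA, C1QB, C1QC and TYROBP. The deposited tables list genes by Ensembl identifier alone, so a gene entered only where the supplement of the study, held here in part, paired its symbol with an identifier. That left 4 of the 10 genes, of 32883 genes in the tables: CD74 (ENSRNOG00000018735), LYZ2 (ENSRNOG00000005825), B2M (ENSRNOG00000017123) and RT1-DA (ENSRNOG00000032844). The other 6 genes (RT1-BA, RT1-DB1, the C1q chains C1QA, C1QB and C1QC, and TYROBP) had no pairing in the parts held and were not analysed here.

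RNA sequencing was performed on whole choroid plexus (from the lateral ventricles and from the fourth ventricle) of male Sprague-Dawley rats 9 weeks of age. One group of 6 rats was sampled in the light phase (zeitgeber time 8 h) and the other group of 6 rats in the dark phase (zeitgeber time 20 h), in both cases 8 h after the phase had begun. All rats were under ketamine and xylazine anesthesia, and the dark phase rats were handled in darkness under red light. Each rat gave 1 library, so the p-values measure the spread between rats. Levels are given in TPM, a measure of transcript abundance that corrects for transcript length and library size, so that levels of different genes can be set side by side. The tissue carried the markers of choroid plexus in all libraries: the 13 epithelium markers all had an identifier, and their sum, mostly transthyretin (TTR), was 271845 to 323102 TPM for light and 305174 to 329642 TPM for dark libraries. Light replicate 2 stood apart from the other libraries. Its 3 hemoglobin genes summed to 29548 TPM, where the dark phase libraries held 4295 to 11133 TPM, and it was highest for the pericyte gene RGS5 (325 against 125 to 212 TPM in the others) and the endothelial gene PLVAP (124 against 56.7 to 96.8 TPM).

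Antigen presentation displays peptides on the cell surface for T cells to inspect. Class II molecules, which in the rat are encoded by the RT1-D and RT1-B genes, are pairs of an alpha and a beta chain made mainly by macrophages, dendritic cells and B cells. Their shared partner CD74, the invariant chain, holds the peptide groove closed until the molecule reaches the endosome, where proteases such as cathepsin S trim CD74 away. Class I molecules are found on nearly all nucleated cells and pair a heavy chain such as RT1-A1 with the small light chain B2M, after folding in the endoplasmic reticulum with help from calnexin, calreticulin and PDIA3. LYZ2 is lysozyme, an enzyme that cuts bacterial cell walls and that macrophages secrete in quantity.

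To determine whether these transcripts fluctuated with the light–dark phase, their expression was compared between the phases with limma, a linear model fitted to the log2 levels of all genes. None of the 4 genes passed the test between the phases, and each lay well above the minimum of 1 TPM used for testing. In the same test 2204 of 12513 genes passed a false discovery rate (FDR, the Benjamini-Hochberg adjusted p over all genes tested) of 0.05, a share of 17.6%. The calls split into 9.52% of the genes tested with more RNA in the dark phase and 8.1% with more in the light phase. Likewise, 0 of the 4 genes had phases that did not overlap, against 8.26% of all genes. In limma, the only tool run, 0 of the 4 reached an unadjusted p of 0.05, against 3832 of the 12513 genes tested. The median difference over all genes tested was -0.01 on the log2 scale.

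CD74 ranged in the light phase from 208.6 to 391.9 TPM with a median of 273 TPM, and in the dark phase from 194.6 to 379.5 TPM with a median of 311 TPM. The phases overlapped almost fully, and both the lowest and the second highest library were dark phase libraries. The mean was 281 ± 61.8 TPM at zeitgeber time 8 h and 301 ± 67.2 TPM at 20 h (SD, n = 6 each). The log2 fold change of dark against light was 0.08 (SE 0.17, limma FDR 0.80, 95% interval -0.28 to 0.43), an interval of -17.9% to 35.2% of the light phase level.

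RT1-DA, the alpha chain of the class II D molecule, ranged from 69.2 to 117 TPM in the light phase (median 81.4 TPM) and from 62.6 to 116.1 TPM in the dark phase (median 96.9 TPM). Again the lowest library was from the dark phase and the highest from the light phase. The means were 87.5 ± 17.8 and 94.9 ± 20.3 TPM (SD, n = 6 each). The log2 fold change was 0.09 (SE 0.15, limma FDR 0.724, 95% interval -0.24 to 0.42).

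B2M, the class I light chain, ranged from 822 to 965 TPM in the light phase (median 875 TPM) and from 758 to 959 TPM in the dark phase (median 880 TPM). The range was narrow relative to the level, and 3 dark phase libraries lay at or below 833 TPM and the other 3 at or above 927 TPM. The means were 890 ± 53.5 and 865 ± 91.9 TPM (SD, n = 6 each). The log2 fold change was -0.06 (SE 0.07, limma FDR 0.584). The 95% interval, -13.6% to 6.19% of the light phase level, was the narrowest of the 4 genes.

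LYZ2 ranged from 320 to 561 TPM in the light phase (median 447 TPM) and from 393 to 511 TPM in the dark phase (median 426 TPM), and the range of the dark phase lay inside that of the light phase. The means were 452 ± 83.3 and 438 ± 44.7 TPM (SD, n = 6 each). The log2 fold change was -0.04 (SE 0.10, limma FDR 0.805, 95% interval -0.26 to 0.17). The rat genome holds a close copy of this gene beside it, Lyc2, so reads may have been shared between the copies and the LYZ2 level is uncertain to that extent.

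**Figure D1:**
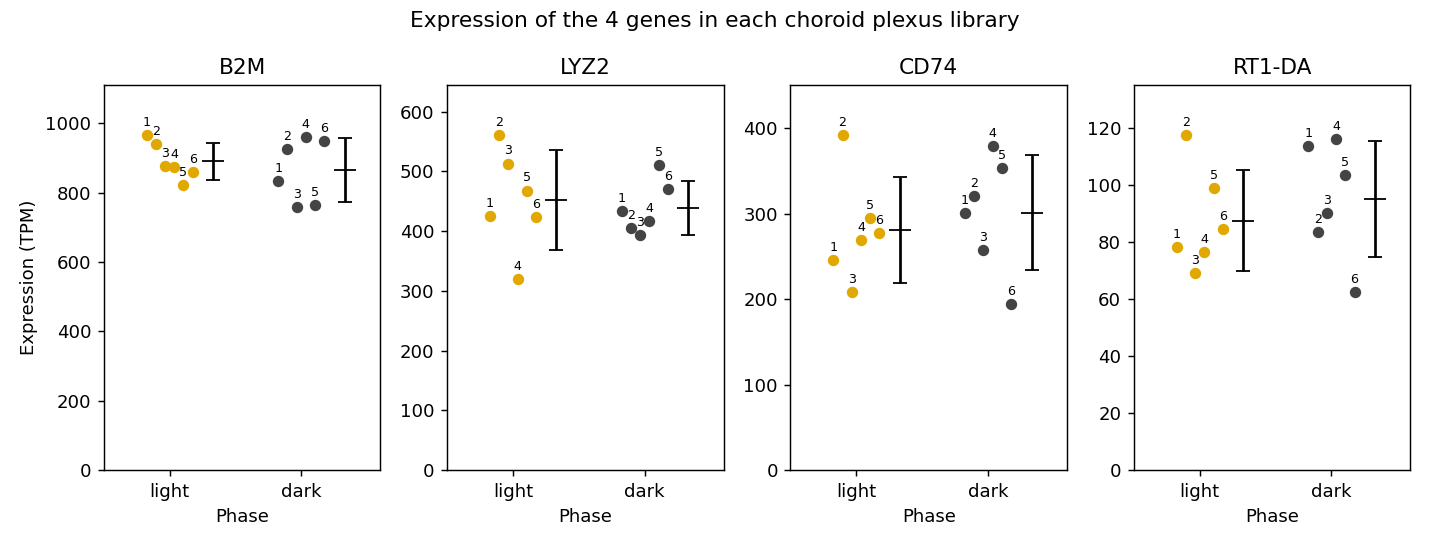
Expression of CD74, LYZ2, B2M and RT1-DA in TPM (vertical axes, each from 0) in the 6 light and 6 dark phase libraries, 1 point for each library, with the phase mean and SD beside the points. The light and dark points overlap in all 4 panels, and the means of B2M lie at 890 and 865 TPM.

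The order of the levels was B2M, LYZ2, CD74 and RT1-DA in 12 of 12 libraries, and by mean TPM they ranked 80, 221, 343 and 1107 among the 32883 genes. B2M was above LYZ2 without overlap (lowest B2M 758 TPM, highest LYZ2 561 TPM), and CD74 above RT1-DA without overlap (195 and 117 TPM). LYZ2 and CD74 were neighbors whose ranges overlapped, since the lowest LYZ2 was 320 TPM and the highest CD74 392 TPM. Within each library CD74 was 2.65 to 3.84 times as abundant as RT1-DA, with a median of 3.21.

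While no phase difference passed the test, the class II genes differed between rats. The SD of CD74 within a phase was 0.32 on the log2 scale and that of RT1-DA 0.30, against a median of 0.09 for the 1703 genes averaging 60 TPM or more. The CD74 spread was wider than that of 96.7% of those genes and the RT1-DA spread wider than that of 96.0%. LYZ2 with 0.19 (90.2%) and B2M with 0.13 (74.1%) were less variable. The highest CD74 library held 1.88 times the lowest one in the light phase and 1.95 times in the dark phase, whereas for B2M these values were 1.17 and 1.27.

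To assess whether the genes varied together from rat to rat, the 6 pairs of genes were correlated over the 12 libraries on the log2 scale of scaled TPM. CD74 and RT1-DA rose and fell together, with Pearson r = 0.89 (permutation p = 0.00019, adjusted over the 6 pairs p = 0.00114) and Spearman rho = 0.83 (permutation p = 0.00148, adjusted p = 0.00888). Without the 2 libraries farthest from the median CD74 level on that log2 scale (light replicate 3 and dark replicate 6, both low), r was 0.75 (permutation p = 0.0155), and without light replicate 2 it was 0.87. Within the light phase r was 0.95 (exact permutation p = 0.00833, rho 0.94) and within the dark phase 0.85 (exact permutation p = 0.0347, rho 0.71 with exact p = 0.136). Among all 12513 genes tested, RT1-DA ranked 2 by r with CD74 and CD74 ranked 2 by r with RT1-DA, and with the phase means taken off the ranks were 4 and 2. The other 5 pairs gave r from -0.28 to 0.11 with an adjusted permutation p of 0.904 in each, so no relation of B2M or LYZ2 with CD74 or RT1-DA passed the test. Without light replicate 3 and dark replicate 6 the r of CD74 with LYZ2 was 0.52 (permutation p = 0.12). As this is bulk tissue, fewer cells of a type and less RNA per cell cannot be told apart.

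**Figure D2:**
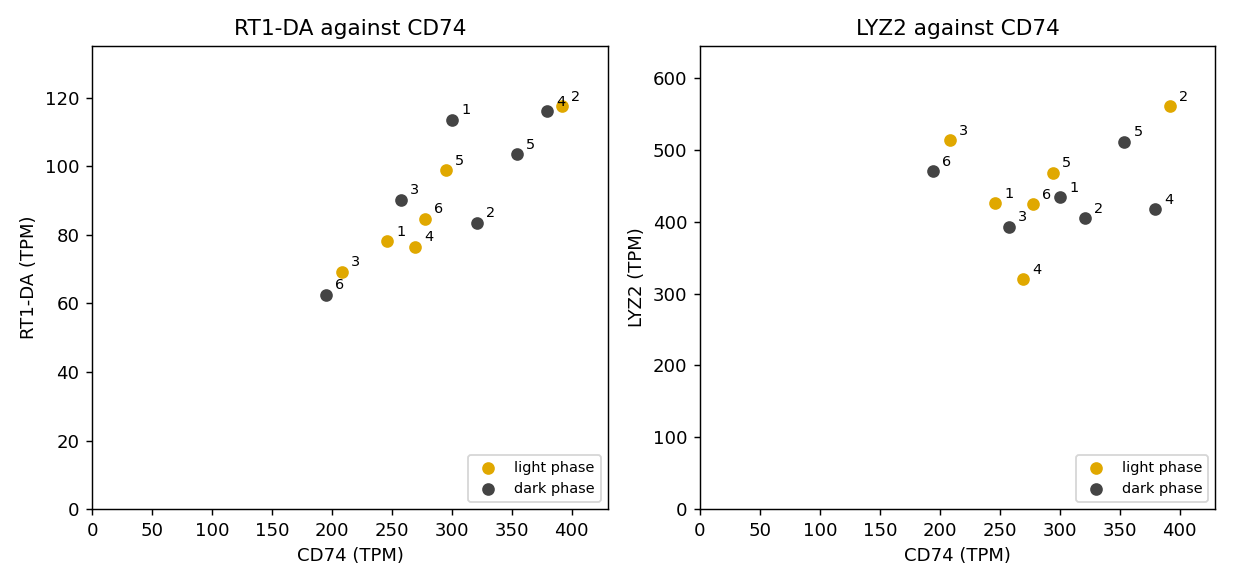
Expression in TPM of RT1-DA (left) and of LYZ2 (right, vertical axes) against CD74 (horizontal axes, TPM), 1 point for each of the 12 libraries, colored by phase and numbered by replicate. RT1-DA climbs with CD74 in both phases (r = 0.89 over the 12 libraries, 0.95 in light and 0.85 in dark). The r of LYZ2 with CD74 is 0.04 over the 12 libraries. These r values were taken on the log2 scale of scaled TPM.

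The ratios between the 4 genes, which do not depend on the scaling of a library, gave no phase difference that passed a test either. The mean log2 ratio of CD74 to RT1-DA was 1.68 ± 0.09 for the light libraries and 1.66 ± 0.19 for the dark libraries (SD, n = 6 each, 2-sided exact permutation p = 0.831, adjusted p = 0.890), a difference of -0.02 with a 95% interval from -0.205 to 0.17. The other 5 ratios had exact permutation p-values between 0.442 and 0.890.

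The promoters of CD74 and RT1-DA are shown because this pair varied together, with that of B2M beside them. As background, promoters of class II genes and of CD74 are known for a shared X and Y box module to which the coactivator CIITA is recruited, and the B2M promoter carries a related module with an interferon-stimulated element. The sequences are the 250 bases before the RefSeq start of each gene (RefSeq, build GRCr8, another build than that of the deposited tables). They are written 5′ to 3′ on the strand of the gene, with capitals for matches to CCAAT or its reverse complement ATTGG (Y box core), to TGACG (X2 box core) and to the consensus of the interferon-stimulated element, all searched on both strands. The windows are chr18:56526956-56527205 (plus strand) for CD74, chr20:4515165-4515414 (plus strand) for RT1-DA and chr3:129549080-129549329 (plus strand) for B2M.
CD74: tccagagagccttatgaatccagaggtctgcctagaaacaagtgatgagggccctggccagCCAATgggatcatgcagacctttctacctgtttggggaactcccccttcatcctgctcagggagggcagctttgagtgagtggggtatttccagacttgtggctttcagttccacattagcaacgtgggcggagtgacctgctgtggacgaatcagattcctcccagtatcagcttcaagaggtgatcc
RT1-DA: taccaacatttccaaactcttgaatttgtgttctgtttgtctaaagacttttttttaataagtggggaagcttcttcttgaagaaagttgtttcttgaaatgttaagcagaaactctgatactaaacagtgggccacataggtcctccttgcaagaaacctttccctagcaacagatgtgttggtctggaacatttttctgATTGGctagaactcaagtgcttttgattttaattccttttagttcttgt
B2M: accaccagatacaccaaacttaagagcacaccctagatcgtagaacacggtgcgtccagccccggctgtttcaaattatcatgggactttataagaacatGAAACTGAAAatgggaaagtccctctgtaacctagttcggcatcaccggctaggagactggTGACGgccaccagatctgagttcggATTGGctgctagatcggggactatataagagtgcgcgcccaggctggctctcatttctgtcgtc
RT1-DA held the Y box letters from 49 to 45 bases before the start, B2M from 64 to 60 and CD74 farther out, from 189 to 185. CCAAT in either orientation was present in 34.02% of 33469 promoter windows of the same length, so a match by itself is common. B2M alone of the 3 held TGACG, from 89 to 85 bases before the start (18.2% of all windows), and the interferon-stimulated letters, from 150 to 141 (3.41% of all windows). The promoter of LYZ2 held none of these letters but had GAGGAA, the core bound by the myeloid factor PU.1, from 46 to 41 bases before the start, and CD74 held it on the minus strand from 32 to 27, with 23.3% of all windows holding it. None of the 4 windows held the clock-associated E box CACGTG (5.59% of all windows) or the D box forms TTATGTAA (0.828%) and TTACGTAA (0.108%).

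The other genes of the pathways could be followed only where an identifier was paired with their symbol, and the source of the pairing bears on every count of called genes that follows. A pairing came either from a table ordered by abundance, of which the part held reached down to a mean of 33.5 TPM, or from the tables of genes that the study itself had called different between the phases. Of the 1997 genes named by abundance 22.9% passed the FDR of 0.05 here, and of the 1630 genes tested that were named only by the study's calls 62.5% passed. Thus CTSS, PTPRC, STAT2, IFNGR1, KIT, C1S, LCK and IGHM below carry a name because these same libraries had already put them among the called genes, and their direction is not independent evidence. All 4 genes of the set were named by abundance.

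Of the class II presentation list (19 genes: class II chains, CIITA and the RFX factors, and endosomal proteases) 5 had an identifier and 0 passed the FDR of 0.05. An unadjusted limma p below 0.05 was reached by 2 of the 5, against 3832 of all 12513 genes tested. The median log2 fold change of the 5 genes was 0.09. Cathepsin S (CTSS), the protease that trims CD74, was 16.4 ± 4.05 TPM in light and 22.1 ± 5.44 TPM in dark libraries, with overlapping ranges of 12.6 to 23.7 and 16.6 to 32.2 TPM (log2 fold change 0.40, SE 0.16, limma FDR 0.101). Without light replicate 2, which held the highest light phase value, its FDR was 0.0356. CTSS did not pass in 11 of 12 cases of leaving out 1 library (FDR up to 0.188). Cathepsin L (CTSL) had 348 ± 29.9 and 322 ± 14.4 TPM (log2 fold change -0.13, limma FDR 0.133). Legumain (LGMN), another endosomal protease, had 241 ± 26.5 and 259 ± 17.4 TPM (limma FDR 0.441).

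Of the class I presentation list (37 genes) 11 had an identifier, all named by abundance, and 3 passed the test, all in the direction of the dark phase, with a median log2 fold change of 0.01 over the 11 genes. These 3 were the chaperones of the endoplasmic reticulum, which fold many secreted and membrane proteins besides class I. Calreticulin (CALR) was up-regulated in the dark phase from 675 ± 37.8 to 1049 ± 43.1 TPM, with a log2 fold change of 0.62 (SE 0.03, limma FDR 2.01e-07). PDIA3 rose from 538 ± 24.2 to 651 ± 15.6 TPM (log2 fold change 0.26, limma FDR 0.000132) and calnexin (CANX) from 264 ± 9.19 to 301 ± 9.97 TPM (log2 fold change 0.17, limma FDR 0.00374). Light and dark libraries did not overlap for any of the 3 genes. The other 8 genes of the list did not pass the test: B2M, the heavy chain genes RT1-A1, RT1-A2 and RT1-S3, the peptide editor TAPBP, the proteasome activator subunits PSME1 and PSME2, and the Fc receptor FCGRT, a partner of B2M. PSME1 (241 ± 14.02 and 246 ± 9.99 TPM, limma FDR 0.816) and FCGRT (92.7 ± 2.67 and 94.1 ± 4.59 TPM, limma FDR 0.953) lay close to one level in both phases.

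**Figure D3:**
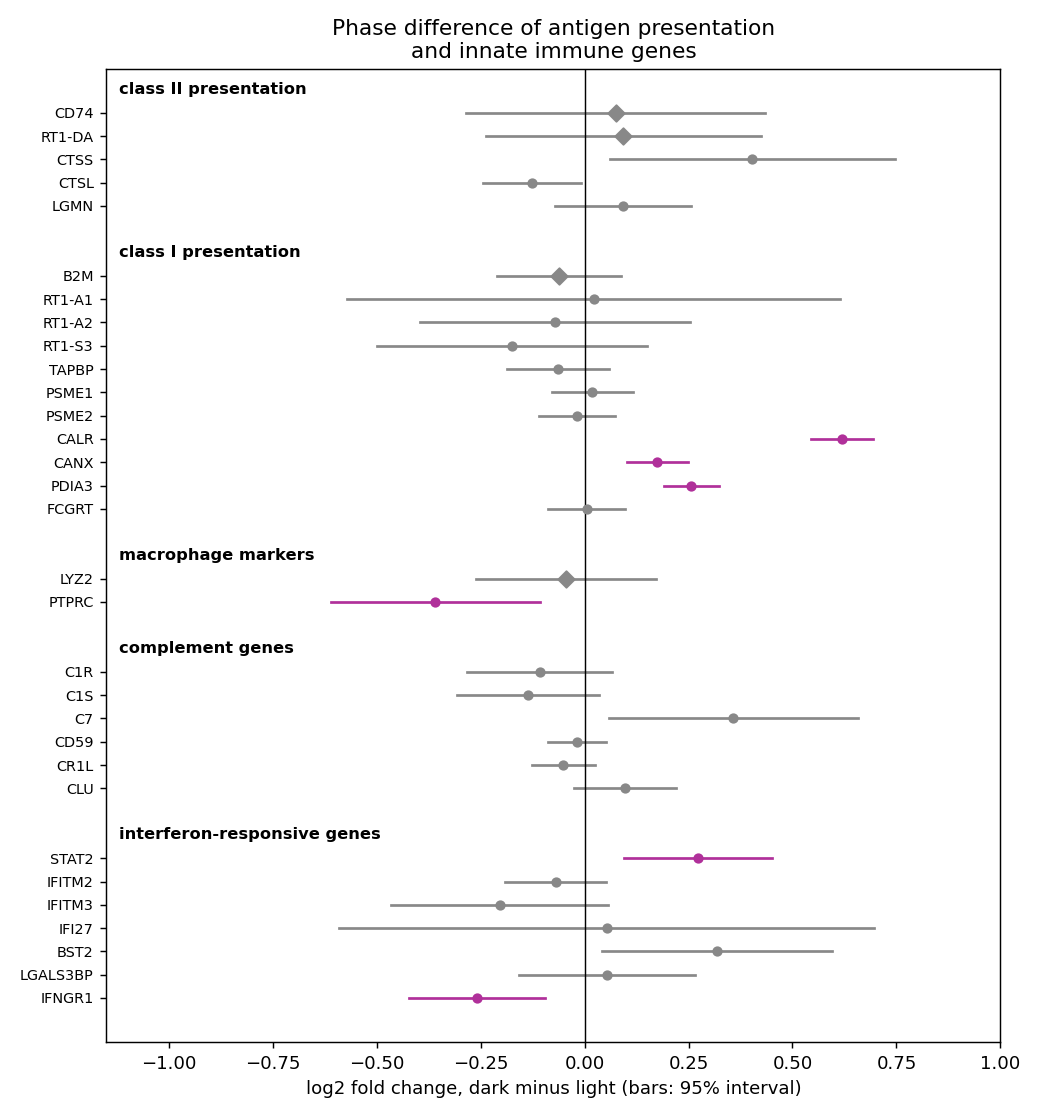
Log2 fold change of dark against light (horizontal axis, 0 is no difference) for each tested gene of the presentation, macrophage, complement and interferon lists. Bars are the 95% interval of the limma fit. Diamonds mark CD74, RT1-DA, B2M and LYZ2, and purple marks genes with an FDR below 0.05. CALR lies farthest to the right at 0.62, and the intervals of CD74, RT1-DA, B2M and LYZ2 all cross zero.

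The heavy chain gene RT1-A1, whose product pairs with B2M, varied between rats in another manner. Its light phase values were 216, 105, 223, 102, 194 and 96.1 TPM in replicates 1 to 6, and its dark phase values 204, 116, 185, 121, 93.5 and 227 TPM. No library lay between 121 and 185 TPM, and 3 libraries of each phase lay on either side of that gap, with no phase difference in the test (log2 fold change 0.02, limma FDR 0.970). RT1-A2 had 73.5, 76.7, 72.4, 82.6, 65.3 and 83.6 TPM for light and 67.6, 90.2, 45.3, 87.8, 85.7 and 70.5 TPM for dark libraries (log2 fold change -0.07, limma FDR 0.790). The 6 libraries with the lower RT1-A2 levels were those with the higher RT1-A1 levels. Class I heavy chain genes are near-identical copies of each other, so reads could be assigned to either, and the levels of single copies are uncertain. Some genes picked as most like RT1-A1 split the same libraries without overlap. Low and high libraries had 19.1 to 24.8 and 37.0 to 53.9 TPM of ENSRNOG00000059770. They had 25.45 to 34.65 and 40.2 to 55.1 TPM of ENSRNOG00000031090, and 17.3 to 24.0 and 30.1 to 33.5 TPM of ENSRNOG00000000470. LOC103690108 and ENSRNOG00000000723, picked likewise, overlapped. What sets these libraries apart was not tested.

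**Figure D4:**
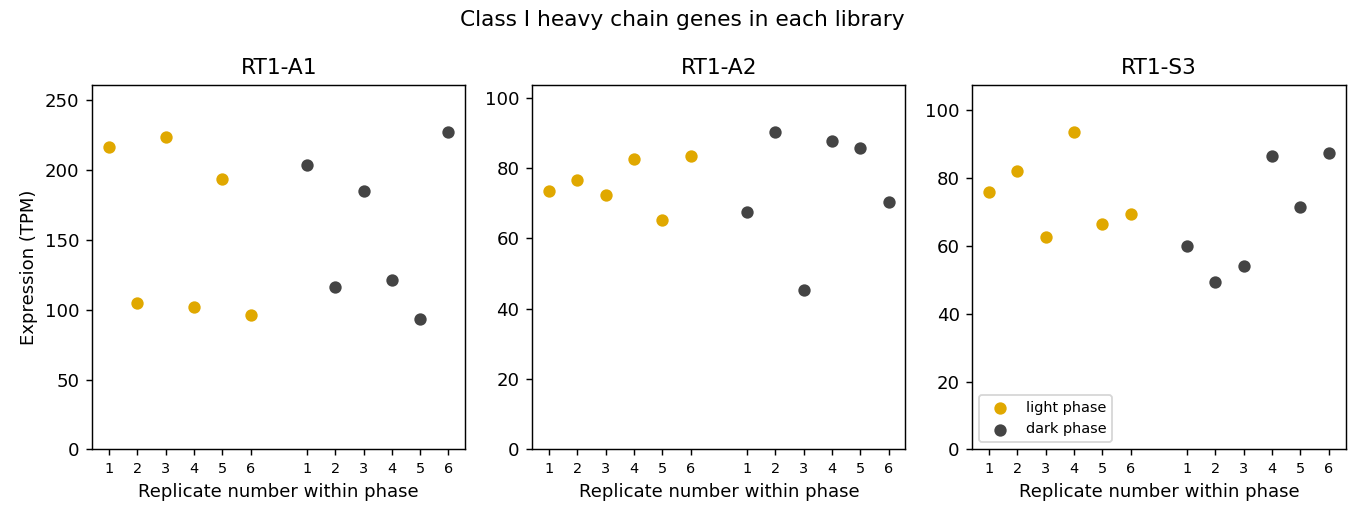
Expression in TPM (vertical axes, each from 0) of RT1-A1, RT1-A2 and RT1-S3 in each library (horizontal axis, replicate number within the phase, with no order among replicates), light phase at the left and dark phase at the right of each panel. RT1-A1 lies either at 93.5 to 121 TPM or at 185 to 227 TPM in both phases, and RT1-A2 lies at 45.3 to 90.2 TPM.

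The macrophage label of the set could be checked with few genes. Of 37 macrophage markers 2 had an identifier, LYZ2 and PTPRC (the pan-leukocyte receptor CD45), and the others, such as CSF1R, CD68 and AIF1, were not analysed here. PTPRC was low, with 2.47 ± 0.373 TPM against 1.84 ± 0.317 TPM in light and dark libraries and ranges of 1.93 to 2.97 and 1.27 to 2.14 TPM. It was lower in the dark phase at the edge of the threshold (log2 fold change -0.36, SE 0.12, limma FDR 0.0497), and it passed in only 6 of 24 alternative settings. The 4 genes are therefore called by their names here. Among the markers of other immune cells, 0 of 12 for neutrophils and monocytes had an identifier, and the lymphocyte genes LCK and IGHM were at 0.54 to 1.87 and 1.52 to 5.64 TPM. Neither passed the test (LCK log2 fold change -0.33, limma FDR 0.338, IGHM -0.62, limma FDR 0.0703). IGHM passed in 3 of 24 alternative settings. Of 8 mast cell markers only 1, KIT, had an identifier, from the study's calls. KIT was higher in the dark phase (4.27 ± 1.31 and 6.95 ± 1.02 TPM, log2 fold change 0.66, limma FDR 0.0114). It did not pass once the model held a term for the FPKM/TPM ratio (log2 fold change 0.47, FDR 0.339). That ratio is the quotient of a library's summed values in both units, FPKM being the companion unit per length and per mapped read. The ratio ran from 0.953 to 0.987 in light libraries (median 0.971) and from 0.934 to 0.960 in dark libraries (median 0.944). The term therefore overlaps with phase, and the term and the phase cannot be fully told apart.

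Of the complement list (27 genes) 6 had an identifier and 0 passed the FDR of 0.05. Only 1 of the 6, C7, had an unadjusted limma p below 0.05, against 3832 of all 12513 genes tested. C7, a part of the membrane attack complex, had 69.5 ± 18.8 and 88.3 ± 12.01 TPM (log2 fold change 0.36, limma FDR 0.0974), and its FDR was 0.0142 without light replicate 2. In 11 of 12 cases of leaving out 1 library C7 did not pass (FDR up to 0.178). Clusterin (CLU), the most abundant of the list, had 5694 ± 282 and 6167 ± 371 TPM (limma FDR 0.267), and the C1 proteases C1R and C1S had an FDR of 0.392 and 0.267.

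Of the interferon-responsive list (59 genes) 7 were tested, of which 1 rose and 1 fell in the dark phase. STAT2, which carries the type I interferon signal to the nucleus, rose from 17.7 ± 1.33 to 21.8 ± 2.42 TPM (log2 fold change 0.27, limma FDR 0.0370), and IFNGR1, a chain of the receptor for interferon gamma, the classical inducer of class II genes, fell from 27.9 ± 4.99 to 23.2 ± 0.727 TPM (log2 fold change -0.26, limma FDR 0.0321). They passed in 13 and 16 of 25 alternative settings. STAT2 did not pass without light replicate 2 (FDR 0.0539), and IFNGR1, whose highest light phase value came from that library, had a log2 fold change of -0.18 without it (FDR 0.0108). BST2, a surface protein that tethers budding viruses, had 191 ± 20.5 and 244 ± 49.8 TPM (limma FDR 0.108). LGALS3BP, a secreted glycoprotein and the most abundant of the list, had 410 ± 47.03 and 431 ± 55.4 TPM (limma FDR 0.755), and the other 3 genes had an FDR above 0.25.

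The library that stood apart, light replicate 2, had the highest CD74, RT1-DA and LYZ2 of all 12 libraries. Without it the log2 fold changes were 0.16 for CD74, 0.17 for RT1-DA, -0.06 for B2M and 0.01 for LYZ2, and none of the 4 genes passed the test. With that FPKM/TPM term they were 0.32 for CD74, 0.21 for RT1-DA, -0.02 for B2M and -0.25 for LYZ2, again with none passing (FDR 0.396 or above). CD74 gave r = 0.57 with the hemoglobin sum (permutation p = 0.048, rho 0.34 with p = 0.286, adjusted over 20 relations p = 0.559) and r = 0.02 without the 2 libraries farthest from the median sum. Within the phases r was 0.73 (light) and 0.74 (dark), and the part of blood in the CD74 level was not tested further. RT1-DA gave r = 0.55 with the hemoglobin sum (0.67 in light, 0.82 in dark) and 0.07 without the 2 libraries farthest from the median sum. With PTPRC, r over all libraries was 0.40 for CD74 (rho 0.17) and 0.43 for RT1-DA (rho 0.13). Without the 2 libraries farthest from the median PTPRC level, r was -0.03 for CD74 and -0.07 for RT1-DA. Within light and dark the r with PTPRC was 0.53 and 0.82 for CD74 and 0.76 and 0.83 for RT1-DA. For LYZ2 these values were 0.79 and -0.31, and for B2M -0.71 and -0.33. Other measures gave within-phase r of similar size, each from 6 libraries. With the epithelium sum r was -0.74 (light) and 0.64 (dark) for CD74, and -0.73 and 0.87 for RT1-DA. With the FPKM to TPM ratio it was -0.13 (light) and 0.84 (dark) for CD74. In the 20 relations of the 4 genes with hemoglobin, PTPRC, the epithelium sum, the FPKM to TPM ratio and the relative depth, 0 passed the adjustment. The relative depth, from the steps that single reads leave in low values of FPKM, ran from 0.879 to 1.36 for light and from 0.892 to 1.09 for dark libraries, and the absolute depth is unknown.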

How the data were processed

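Choroid plexus RNA was sequenced from 6 light and 6 dark phase rats. The authors mapped the reads with STAR and quantified genes with RSEM against the rat build Rnor_6.0, and they deposited TPM and FPKM values per gene with 2 decimals for each library (per the labels, STAR 2.7.9a and RSEM 1.3.3). Since these are not counts, the DESeq2 test that the authors ran on counts could not be repeated here. TPM values were scaled by a trimmed mean of ratios (30% of ratios and 5% of levels at each end) and the log2 of scaled TPM + 0.5 was tested for genes averaging 1 TPM or more with limma 3.58.1 in R 4.3.3, with phase as the only term and a variance trend. Fold changes are on this log2(TPM + 0.5) scale, which understates the change of low genes. Intervals are 95% intervals of the fit, and those of the ratios come from inverting the exact test over the 924 splits of 6 against 6. Correlations used Python 3.11.15 with scipy 1.17.1 and 100000 permutations, exact within a phase. The limma step was tested on simulated data. No libraries were identical, and their correlations ran from 0.958 to 0.983. Symbols came from the study's supplement for 3700 genes (identifiers and symbols only).

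Named genes are the 4 genes of the set, the 3 lowest p-values and the highest level in each presentation, macrophage, complement and interferon list, every called gene of the presentation and macrophage lists, called or highest cell type markers, and the genes most like each of the 4. Not every gene that this rule gives is printed. PSME1, PSME2, TAPBP, RT1-S3 and FCGRT are named beyond it, and RT1-A1, RT1-A2 and the genes most like RT1-A1 were described after their values were seen. The set and the lists were chosen with earlier results of these data known. Alternatives covered scaling, pseudocount, filter, variance model, FPKM in place of TPM, a replicate block, a term for the FPKM to TPM ratio, and leaving out each library.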

Additional observations from a re-analysis of the deposited data

Results flagged for a closer look

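The 62 groups formed by 31 presentation, macrophage, complement and interferon genes in each phase were searched for a single library far from the other 5, and 5 groups held one, where chance gives about 3.1. Of these 5 values, 3 came from light replicate 2, the library with the high hemoglobin: IFITM3, an antiviral membrane protein, at 158 TPM (others 85.0 to 95.2 TPM), IFNGR1 at 37.7 TPM (others 24.3 to 27.3 TPM) and the complement protease C1S at 21.5 TPM (others 14.4 to 16.8 TPM). CANX stood at 281 TPM in light replicate 1 (others 256 to 264 TPM). C1R stood at 45.3 TPM in dark replicate 6 (others 52.8 to 55.7 TPM), the library that also had the lowest CD74 and RT1-DA. No value of CD74, RT1-DA, B2M or LYZ2 stood apart in this way.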

How the results depend on the processing

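CD74, LYZ2, B2M and RT1-DA passed the FDR of 0.05 in none of the 25 alternatives, with a lowest FDR of 0.386, 0.337, 0.367 and 0.30. Leaving out 1 library at a time, the log2 fold change ran from -0.01 to 0.20 for CD74, which turned without light replicate 3 (-0.0073) or dark replicate 4 (-0.0024), and from -0.12 to 0.01 for LYZ2, which turned without light replicate 2 (0.0066). It ran from 0.03 to 0.21 for RT1-DA and from -0.10 to -0.02 for B2M. Leaving out 1 library also turned the log2 ratios of LYZ2 to B2M (-0.073 to 0.068), CD74 to LYZ2 (-0.0024 to 0.26) and CD74 to RT1-DA (-0.074 to 0.033), none of which was called. The correlation of CD74 with RT1-DA kept its direction, and among the uncalled ones these turned: CD74 with LYZ2 without light replicate 2 (-0.18, a setting chosen after seeing the data), CD74 with B2M in the dark phase (0.0047) and without the 2 libraries farthest from the median CD74 (0.15), LYZ2 with B2M without scaling (0.030) and LYZ2 with RT1-DA in the dark phase (-0.10), without light replicate 2 (-0.071) and without the 2 libraries farthest from the median LYZ2 (-0.21). With a term for the FPKM to TPM ratio, 345 genes were called (224 higher in the dark and 121 higher in the light phase), CANX had an FDR of 0.0566, KIT 0.339 and TAGLN 0.185, and the log2 fold changes moved to 0.32 for CD74, 0.21 for RT1-DA and -0.25 for LYZ2. As that ratio itself differed between the phases, these shifts cannot be told apart from an overlap of the term with phase. With the replicate block 1574 genes were called, and STAT2 (FDR 0.0729), IFNGR1 (0.0532) and PTPRC (0.107) were not, but the replicate numbers are only names: same-numbered libraries correlated at -0.142 to 0.106 after the phase means were taken off, and 1 of 6 light libraries was closest to its own number.

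Class II presentation had 1 called gene with sample weights and 0 to 1 leaving out 1 library, and complement likewise 1 with sample weights and 0 to 1. Interferon-responsive genes had 1 without scaling and without the filter, 0 with the block or the FPKM to TPM ratio, and 0 to 2 leaving out 1 library. The macrophage list had 0 called genes without scaling, with the upper quartile, with a pseudocount of 0.1, without the filter, with a minimum of 5 TPM (PTPRC is not tested there), with sample weights, with the block, with the FPKM to TPM ratio and with FPKM, and 0 to 1 leaving out 1 library. Leaving out 1 library ended the call of PTPRC in 10 of 12 cases (all but light and dark replicate 4, FDR up to 0.106), of STAT2 in 9 (all but light replicate 1 and dark replicates 3 and 5, FDR up to 0.0798) and of IFNGR1 in 6 (light replicate 6 and dark replicates 1, 2, 3, 5 and 6, FDR up to 0.065). The cause was not tested. With absolute depth unknown, no floor can be given for low genes such as PTPRC, and 6 of the 10 genes had no identifier.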

Other observations

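The genes most like each of the 4 were mostly unnamed. CD74 had its highest correlation over the 12 libraries with ENSRNOG00000033215 (r = 0.93, 19.2 TPM on average, log2 fold change 0.15, limma FDR 0.820) and RT1-DA with ENSRNOG00000015577 (r = 0.90, 12.9 TPM, limma FDR 0.614), which also ranked as the third for CD74 (r = 0.85). These values describe the 12 libraries, which share their scaling, and were picked as the highest of 12513 genes. B2M had RLBP1, which encodes a retinoid-binding protein, as its only named neighbor among the first 5 (r = 0.86, 54.8 TPM), and LYZ2 had none, with ENSRNOG00000023628 first (r = 0.91, 2.50 TPM).

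Among the markers of the other cell types, each of the endothelium and mural lists had 2 genes with an identifier and 1 call. FLT1, an endothelial receptor for VEGF named only by the study's calls, rose in the dark phase from 12.7 ± 0.979 to 16.5 ± 0.748 TPM (SD, 6 rats each, limma FDR 0.000175), and the smooth muscle gene TAGLN fell from 54.7 ± 23.2 to 31.3 ± 4.24 TPM (limma FDR 0.0270). The highest TAGLN was in light replicate 2 (95.8 against 27.0 to 65.0 TPM in the others). Without that library the log2 fold change was -0.56 (limma FDR 0.0274), against -0.73 with all libraries. TAGLN did not pass without light replicate 5 (FDR 0.0597) or without dark replicate 2 (0.0533), 3 (0.0591) or 6 (0.0534). The other endothelial gene, PLVAP, had 76.4 ± 23.9 and 66.8 ± 15.1 TPM (limma FDR 0.463), and the other mural gene, RGS5, 167 ± 77.3 and 156 ± 29.6 TPM (limma FDR 0.90). Of the 13 epithelium markers, PRLR, KL, OTX2 and CLIC6 rose and AQP1 and SLC4A5 fell in the dark phase, and of these PRLR and KL still passed once a term for the FPKM/TPM ratio was added. CFAP126, listed with the neuron, glia and ependyma markers, fell from 208 ± 7.05 to 144 ± 9.76 TPM (limma FDR 1.79e-05). Which cells of the tissue its RNA came from was not tested. Of the 5 fibroblast genes with an identifier 0 passed, with none below an unadjusted limma p of 0.05, against 3832 of all 12513 genes tested.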
